A study of Rattus norvegicus with 9 samples.

Results

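Osteopontin and the genes of the ductular reaction were followed through the livers of rats given vehicle, carbon tetrachloride (CCl4), or CCl4 together with rottlerin (CCl4+Rot). The set comprises 9 genes, chosen by symbol: Spp1, which encodes osteopontin, and Epcam, Krt19, Krt7, Prom1, Sox9, Cd24, Cftr and Cldn4. Of these 9 genes, 8 had a row in the expression table, out of 14377 genes that the table names with a single symbol. No row named Sox9, and it was not analysed here. Where several probe sets read a gene, the brightest was to be used, which is a choice selected on measured values, but each of the 8 genes had exactly 1 probe set and that step decided nothing.

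Whole liver RNA was hybridised to an Affymetrix rat GeneChip, a short-oligonucleotide array labelled from the 3′ end, on 9 arrays in 3 groups of 3. The animals were male Sprague–Dawley rats. CCl4, an industrial solvent that injures the hepatocytes around the central vein, was mixed with olive oil and injected into the peritoneum for 8 weeks in both the CCl4 and the CCl4+Rot group. Rottlerin, a plant polyphenol used in this study to open large-conductance calcium-activated potassium (BK) channels, was injected into the CCl4+Rot rats at 2.5 mg per kg once 2 weeks of CCl4 had passed. The vehicle group (arrays numbered 3, 4 and 5) is labelled only as vehicle-treated, the CCl4 group (arrays 1, 2 and 3) received the toxin alone, and the CCl4+Rot group (arrays 4, 5 and 6) carried the same CCl4 exposure as the CCl4 group. No group received rottlerin without CCl4. Rottlerin is known to act on other targets as well, and the model injures hepatocytes rather than bile ducts. The CCl4 against vehicle comparison asks what chronic injury did to these genes, and the CCl4+Rot against CCl4 comparison asks what the channel opener changed on top of it.

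The ductular reaction is the expansion of small, branching, biliary-type cells at the edge of the portal tracts when the liver is injured for a long time. These cells carry the markers of bile duct epithelium (cytokeratins 7 and 19, EpCAM, CD24, CD133 and the transcription factor SOX9), and they lie next to the matrix-producing cells of a fibrotic scar. Osteopontin is a secreted phosphoprotein of bone and epithelia that binds integrins and CD44. In the normal liver it is made mainly by bile duct cells, and in injury also by macrophages and activated stellate cells, so that it belongs to the ductular reaction but not to it alone.

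All values are log2 signals, on which 1 unit is a doubling, and each array also calls each probe set present or absent. A probe set was called changed at an adjusted p below 0.05 and a fold of at least 1.5 (limma, Benjamini-Hochberg over 31042 probe sets). One array stood apart. CCl4 array 3 called 12714 probe sets present, against 15550 to 16849 on the other arrays, and its median signal was 7.81 against 6.79 to 7.01, so results that rest on it are given with and without it. On that array the mean of 11 hepatocyte genes was 13.90, against 14.52 to 14.70 on the other arrays, and the mean of 17 pancreas and intestine genes was 6.59, against 5.31 to 5.78, with no gene of that list called present there. The median of all probe sets shifted by 0.18 between CCl4 and vehicle and by -0.12 between CCl4+Rot and CCl4, and these shifts became -0.02 and 0.01 under quantile normalization and -0.18 and 0.13 with each array centred on its median. The liver identity of the samples held on every array: Alb, Apoa1, Ttr and Hnf4a were called present on all 9. Since whole tissue was measured, fewer cells of a type and less RNA per cell cannot be told apart, and the p-values measure only the spread between 3 samples a group.

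Spp1 was the member with the largest difference between the groups. In vehicle liver its signal was 5.92, 6.42 and 6.26 on arrays 3, 4 and 5, and it was called absent on each of them. In CCl4 liver it was 12.11, 9.90 and 11.58 on arrays 1, 2 and 3, all called present. In CCl4+Rot liver it was 10.46, 8.11 and 8.74 on arrays 4, 5 and 6, again all present. Every array that had seen CCl4 was thus above every vehicle array, and the gene went from undetected to detected in both injured groups. The rottlerin arrays lay lower than the CCl4 arrays as a group but overlapped them, because CCl4+Rot array 4 was above CCl4 array 2.

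The mean Spp1 signal was 6.20 ± 0.25 (SD, n = 3) with vehicle, 11.20 ± 1.15 with CCl4 and 9.10 ± 1.21 with CCl4+Rot. Since the gene was not detected in vehicle liver, the difference is a bound: the CCl4 mean was at least 32.0-fold above the vehicle mean (log2 difference 5.00, SE 0.72, 95% interval 3.31 to 6.68). The bound concerns detection in vehicle liver and not the spread between arrays, for which the interval reaches lower. Leaving out single arrays moved this bound between 23.3 (without CCl4 array 1) and 50.1 (without CCl4 array 2), and without CCl4 array 3 it was 28.0. It was the largest positive difference among the 9811 genes called present on at least 3 arrays, ahead of Mcpt2, a mast cell protease, at 4.48, while 2 genes had negative differences between -5.0 and -4.75. Even so limma did not call it over all probe sets, with an adjusted p of 0.168 (exact permutation p = 0.1, the smallest that 3 against 3 arrays allow). By p it ranked 28 of the 31042 probe sets. The same limma comparison with a mean-variance trend and robust variances called Spp1, with an adjusted p of 0.0247. That call did not survive the loss of CCl4 array 3, where the trended, robust limma fit gave an adjusted p of 0.0532. The limma fit restricted to probe sets present on at least 3 arrays gave an adjusted p of 0.0434. Spp1 passed that filter only through the injured groups, where it was high, so this value is no separate support.

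Between CCl4+Rot and CCl4 the Spp1 difference was -2.09 (SE 0.72, 95% interval -3.78 to -0.41), a mean 4.26-fold lower with rottlerin. It was the 7th lowest of the 9811 genes by size, but the limma adjusted p was 0.724 and the exact two-sided permutation p was 0.2. Without CCl4 array 3 the difference was -1.90, and over all arrays left out in turn it ranged from -2.77 (without CCl4+Rot array 4) to -1.60 (without CCl4+Rot array 5). Spp1 thus did not pass the test with rottlerin, although the sign of its difference was kept whichever array was left out. Against vehicle, CCl4+Rot liver was still at least 7.50-fold higher for Spp1 (limma adjusted p = 0.303), a bound of 4.69 without CCl4+Rot array 4 and of 10.6 without CCl4+Rot array 5. The comparisons share arrays, CCl4+Rot against CCl4 using the same CCl4 arrays as CCl4 against vehicle, and they are given side by side and not as separate evidence.

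**Figure D1:**
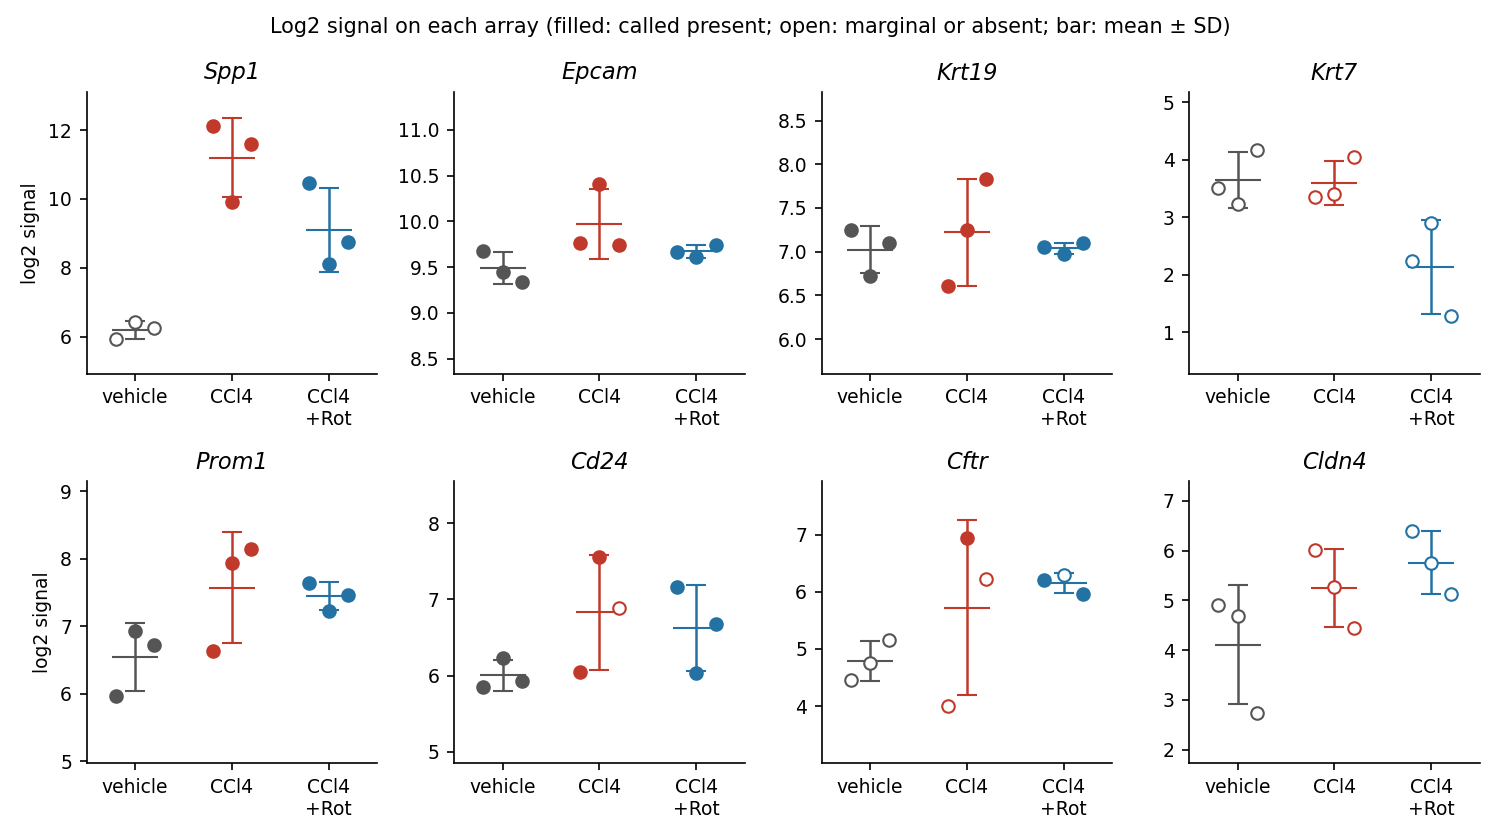
Log2 signal of the 8 measured genes on each of the 9 arrays, with 1 panel per gene and a vertical range of its own in each panel. The points are single arrays, coloured by group, with filled points for present and open points for marginal or absent calls, and the bars are group means with their SD. Spp1 lies between 5.92 and 6.42 with vehicle and between 8.11 and 12.11 on the other 6 arrays, while Krt7 and Cldn4 have open points on all arrays.

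Spp1 was also among the few genes that were absent in vehicle liver and present throughout injury. By detection calls 13 of the 14377 genes were present on no vehicle array and on all 6 arrays of the injured groups, and Spp1 had the largest CCl4 difference among them. These genes were picked by the contrast that orders them. All belong to the 9811 genes ranked above, so the first place of Spp1 here was fixed in advance. The next were Pbsn at 4.27, Lilrb4 (an inhibitory receptor of myeloid cells) at 4.15, and Postn (periostin, a matrix protein of activated fibroblasts) and Cthrc1 (a secreted collagen-related protein), both at 3.50.

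The promoters of Spp1, Epcam and Prom1 are shown so that the gene absent in vehicle liver can be set beside genes detected in every liver. Each is the 250 bases before the RefSeq transcription start, 5′ to 3′ on the strand of the gene, in the rat assembly GRCr8, and capitals mark matches on either strand to 6 motifs: the TATA box TATAAA, the box CCAAT, the GC box GGGCGG, the AP-1 site TGANTCA, the Runx site TGNGGT and the STAT site TTCNNNGAA. RefSeq windows were found for 5 of the 9 genes (Spp1, Epcam, Prom1, Cd24 and Cftr). Spp1 lies at chr14:5619805-5620054 on the minus strand, Epcam at chr6:12649679-12649928 on the minus strand, and the first of the Prom1 windows at chr14:71202395-71202644 on the plus strand.
Spp1: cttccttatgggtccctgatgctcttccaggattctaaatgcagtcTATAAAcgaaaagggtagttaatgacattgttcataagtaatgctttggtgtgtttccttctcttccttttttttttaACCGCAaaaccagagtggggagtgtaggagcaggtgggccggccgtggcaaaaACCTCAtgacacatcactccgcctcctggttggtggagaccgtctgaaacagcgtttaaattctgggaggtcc
Epcam: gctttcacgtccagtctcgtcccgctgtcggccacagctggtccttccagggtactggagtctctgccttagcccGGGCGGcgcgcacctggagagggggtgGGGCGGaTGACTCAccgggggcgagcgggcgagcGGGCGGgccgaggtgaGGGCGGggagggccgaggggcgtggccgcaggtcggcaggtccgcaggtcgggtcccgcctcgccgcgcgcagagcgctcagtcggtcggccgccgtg
Prom1: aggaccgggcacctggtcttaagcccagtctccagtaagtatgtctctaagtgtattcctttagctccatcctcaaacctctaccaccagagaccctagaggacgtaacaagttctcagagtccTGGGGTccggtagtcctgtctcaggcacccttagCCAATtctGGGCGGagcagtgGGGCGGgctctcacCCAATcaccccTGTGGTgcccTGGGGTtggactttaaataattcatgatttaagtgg

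The Spp1 window was 46.8% G or C with 7 CpG dinucleotides, and held 1 TATAAA match starting 204 bases before the start and matches to the Runx letters at 126 and 73 bases. The Epcam window was 75.6% G or C with 33 CpG, and held 4 GC boxes and 1 AP-1 match, 141 bases before the start. The Prom1 window was 53.2% G or C with 5 CpG, and held 2 CCAAT boxes, 2 GC boxes and 3 Runx matches. The Cd24 and Cftr windows resembled that of Epcam, at 75.6% and 69.2% G or C with 28 and 20 CpG and with 3 and 2 GC boxes. Over 33360 rat windows the median was 51.6% G or C with 5 CpG, so that the Spp1 window lay below it in base composition and those of Epcam, Cd24 and Cftr lay well above. In the annotation of the expression table, whose genome build is not stated, Spp1 is on chromosome 14 (6653512 to 6657533, minus strand), Epcam on chromosome 6 (21264098 to 21280078, minus strand) and Prom1 on chromosome 14 (71573129 to 71668096, plus strand). Matches are a description of letters: over all windows TATAAA was found in 12.9%, CCAAT in 34.0%, the GC box in 30.5%, the AP-1 letters in 6.35%, the Runx letters in 41.0% and the STAT letters in 7.68%.

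Epcam, which encodes a cell adhesion molecule of biliary and progenitor epithelium, was detected in every liver and differed little. Its signal was 9.68, 9.45 and 9.33 on vehicle arrays 3, 4 and 5, 9.77, 10.41 and 9.74 on CCl4 arrays 1, 2 and 3, and 9.67, 9.61 and 9.74 on CCl4+Rot arrays 4, 5 and 6. All CCl4 arrays were above all vehicle arrays, arrays 1 and 3 by a small margin, and the CCl4+Rot arrays overlapped both other groups. The CCl4 difference was 0.48 (SE 0.22, 95% interval -0.03 to 1.00; limma adjusted p = 0.431), and the rottlerin difference was -0.30 (95% interval -0.82 to 0.22; limma adjusted p = 0.783). CCl4 array 2 carried much of both values: without it they were 0.26 and -0.08. With each array centred on its median they were 0.13 and -0.053.

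Krt19, the cytokeratin that marks bile ducts in rodent liver, showed no separation of the groups. Its signal was 7.25, 6.72 and 7.10 with vehicle, 6.60, 7.24 and 7.83 with CCl4 and 7.05, 6.97 and 7.09 with CCl4+Rot, called present on all 9 arrays. The CCl4 arrays held both the lowest and the highest value of the series. The CCl4 difference of 0.20 (95% interval -0.53 to 0.93; limma adjusted p = 0.812) became -0.10 without CCl4 array 3, and the rottlerin difference of -0.19 (95% interval -0.91 to 0.54; limma adjusted p = 0.893) became 0.12. Both also changed sign under quantile normalization and with each array centred on its median, so no direction is given for this gene.

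Prom1 encodes CD133, a membrane protein of the apical surface and of progenitor cells. Its signal was 5.97, 6.93 and 6.72 with vehicle, 6.63, 7.93 and 8.15 with CCl4 and 7.63, 7.23 and 7.46 with CCl4+Rot, present on all 9 arrays. CCl4 array 1 lay within the vehicle range, whereas all CCl4+Rot arrays were above all vehicle arrays. The CCl4 difference was 1.03 (SE 0.43, 95% interval 0.02 to 2.04; limma adjusted p = 0.397), or 0.74 without CCl4 array 3 and 0.67 with each array centred on its median, and the CCl4+Rot against vehicle difference was 0.90 (limma adjusted p = 0.670). Between the injured groups it was -0.13 (limma adjusted p = 0.950), and 0.16 without CCl4 array 3.

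Cd24, a small glycoprotein on the surface of biliary and progenitor cells, was 5.85, 6.23 and 5.93 with vehicle, 6.05, 7.55 and 6.89 with CCl4 and 7.16, 6.03 and 6.67 with CCl4+Rot. It was called present on 8 of the 9 arrays and absent on CCl4 array 3, although its signal there was above the vehicle range. In each injured group 1 array lay within the vehicle range, CCl4 array 1 and CCl4+Rot array 5. The differences were 0.83 for CCl4 against vehicle (limma adjusted p = 0.467), or 0.37 under quantile normalization and 0.47 with each array centred on its median, and -0.21 for CCl4+Rot against CCl4 (limma adjusted p = 0.912), the latter changing sign, to 0.15, without CCl4 array 2 and under quantile normalization.

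Cftr encodes the chloride channel of the cholangiocyte's apical membrane, which drives the bicarbonate and fluid secretion of bile ducts. Its signal was 4.45, 4.76 and 5.16 with vehicle, 4.00, 6.93 and 6.22 with CCl4 and 6.20, 6.30 and 5.96 with CCl4+Rot. It was called present on no vehicle array, on CCl4 array 2 and on CCl4+Rot arrays 4 and 6. All CCl4+Rot arrays were above all vehicle arrays, while the CCl4 group held the lowest and the highest value. The ratio of means was 2.58-fold for CCl4+Rot over vehicle (limma adjusted p = 0.685) and 1.91-fold for CCl4 over vehicle (limma adjusted p = 0.591). The latter fell to 1.25 without CCl4 array 2 and reached 3.45 without CCl4 array 1. Neither ratio is a lower limit, because Cftr was also called absent on arrays of both brighter groups. The fitted CCl4 difference of 0.93 was 0.46 under quantile normalization and 0.57 with median centring. CCl4+Rot and CCl4 differed by 0.44 (limma adjusted p = 0.884), and by -0.42 without CCl4 array 1.

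Krt7, the other cytokeratin of bile ducts, and Cldn4, a tight junction claudin of ductal epithelium, were called absent on all 9 arrays. Krt7 signals ran from 3.24 to 4.18 with vehicle, from 3.35 to 4.04 with CCl4 and from 1.27 to 2.90 with CCl4+Rot. Cldn4 signals ran from 2.73 to 4.91, from 4.45 to 6.01 and from 5.12 to 6.39. All rottlerin arrays were below all other arrays for Krt7, and above all vehicle arrays for Cldn4, but a signal below detection has no level here, and no fold is given for either gene.

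Read as a set, the measured members leaned upward with CCl4, and none was called. The members were chosen with earlier results of these data known, so the lean is a description only. The limma fit called 0 of 8 members for CCl4 against vehicle, beside 0% of all probe sets, 0 of 8 for CCl4+Rot against CCl4, beside 0.00322% (1 probe set, with no gene symbol), and 0 of 8 for CCl4+Rot against vehicle, beside 0.0258%. At an unadjusted p below 0.05 the counts were 2 (Spp1 and Prom1), 2 (Spp1 and Krt7) and 3 (Spp1, Krt7 and Cldn4), beside 12.4%, 6.63% and 8.31% of all probe sets. The trended, robust fit called 1, 0 and 0 members, beside 1.12%, 0.00322% and 0.776% of all probe sets. For CCl4 against vehicle 7 of the 8 members had a positive difference, where 61.2% of all genes did, and the member median was 0.88 against 0.13 over all genes. The 7 include Cldn4, which was never called present, and Krt19, for which no direction is given. Krt7, the member with a negative difference, was never called present either. Over the 6 detected members the median was also 0.88. Without CCl4 array 3 these medians were 0.71 and 0.03, and without CCl4 array 2 the member median was 0.40. The member median was 0.47 under quantile normalization and 0.52 with each array centred on its median. With rottlerin on top, 6 of 8 members had a negative difference with a median of -0.20, against -0.05 over all genes, and without CCl4 array 3 the median was -0.04. That median turned positive under quantile normalization, at 0.033, and with each array centred on its median, at 0.050, so it has no settled direction. Against vehicle the CCl4+Rot median was 0.76, against 0.03 over all genes.

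Groups that did not overlap were counted in the same way. For CCl4 against vehicle they were Spp1 and Epcam, 2 of 8 members against 18.3% of all probe sets, which is close to the background. Between CCl4+Rot and CCl4 the only one was Krt7, 1 of 8 members against 11.6%, at signals that were called absent. For CCl4+Rot against vehicle they were Spp1, Prom1, Cftr and Cldn4 on the higher side and Krt7 on the lower, 5 of 8 members against 21.1%, and Krt7 and Cldn4 among them were never detected. The number of members called present was 4 on each vehicle array, 5, 6 and 4 on CCl4 arrays 1, 2 and 3, and 6, 5 and 6 on CCl4+Rot arrays 4, 5 and 6.

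**Figure D2:**
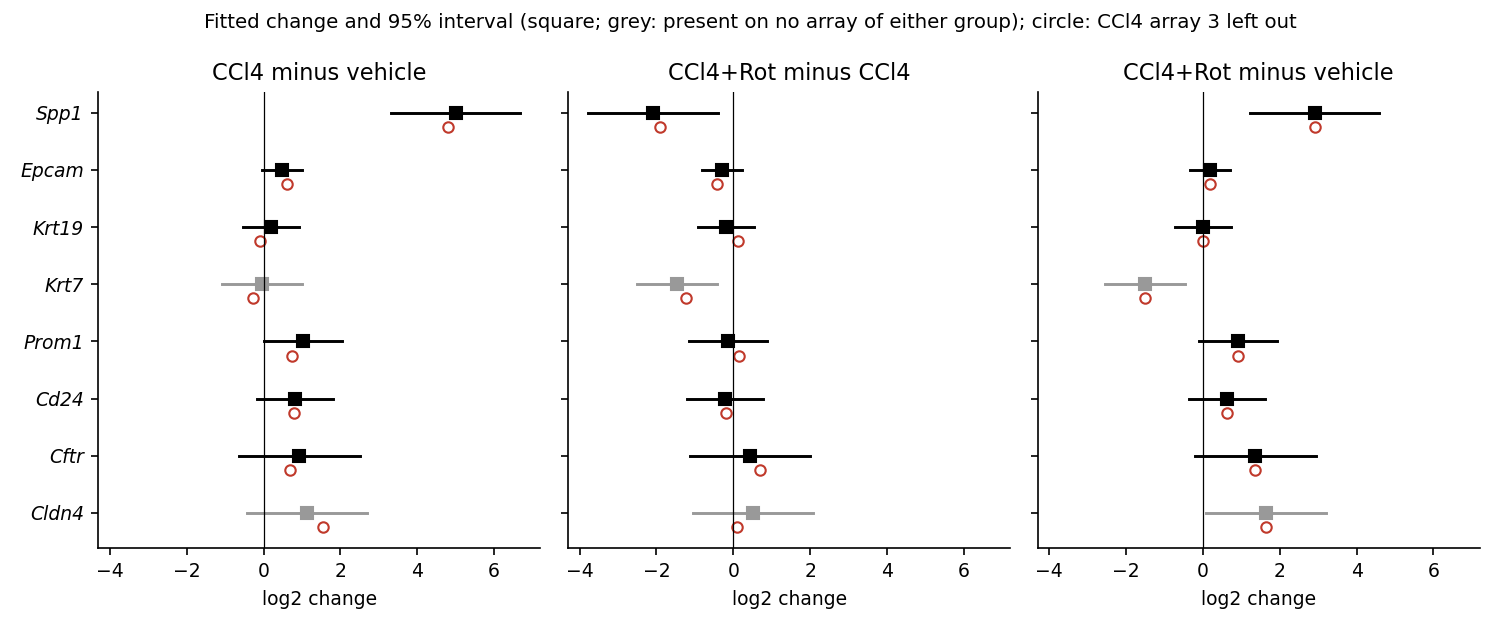
Fitted log2 differences of the members with their 95% intervals for the 3 comparisons, on a common horizontal axis. Squares are the fit over 9 arrays (grey for genes never called present), lines their intervals, and open circles the value without CCl4 array 3. The Spp1 intervals are 3.31 to 6.68 for CCl4 against vehicle and -3.78 to -0.41 for CCl4+Rot against CCl4, and those of Krt19 include 0 in every comparison.

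**Figure D3:**
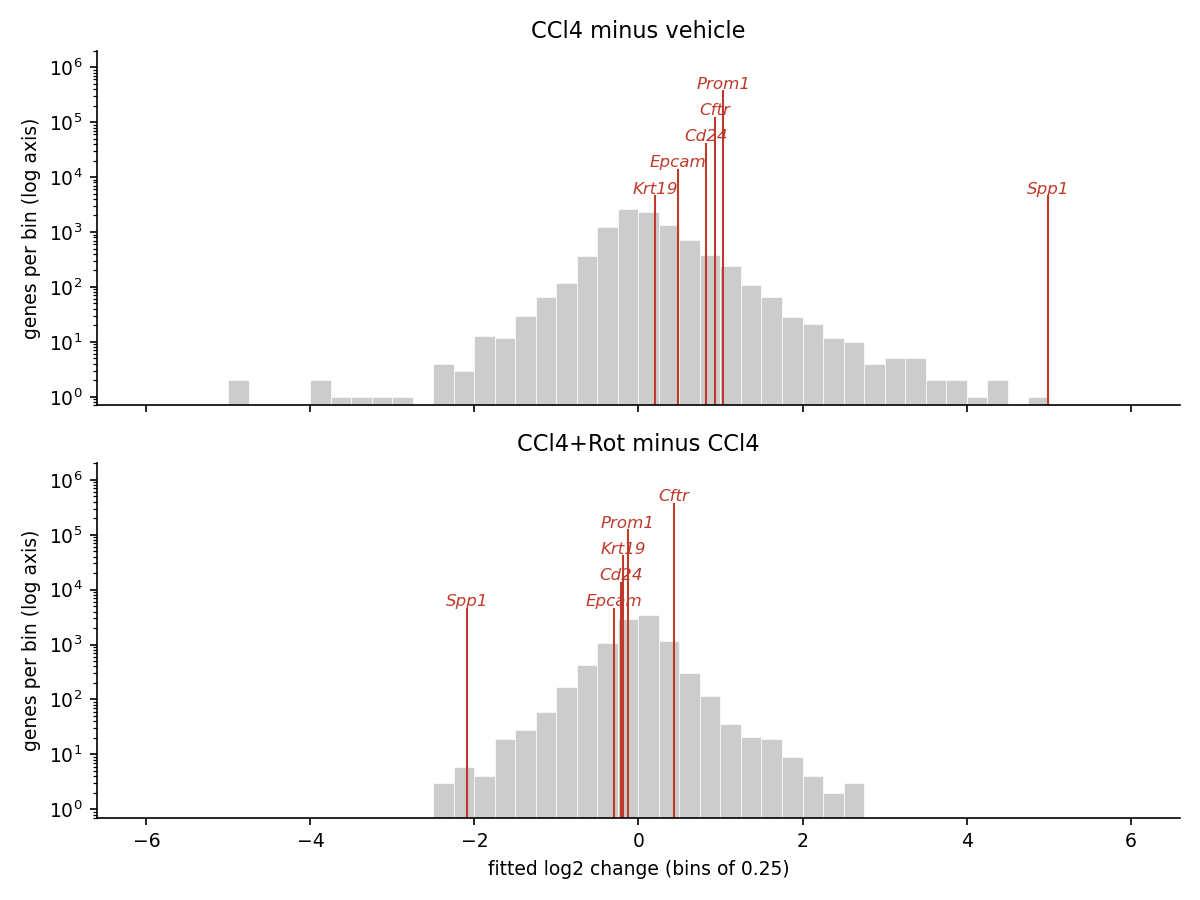
Histograms of the fitted log2 difference over the 9811 genes called present on at least 3 arrays, with a logarithmic count axis, for CCl4 against vehicle (top) and CCl4+Rot against CCl4 (bottom). Vertical lines give the detected members: Spp1 is at 5.00 and -2.09, at the edge of each histogram, and the others lie between -0.30 and 1.03.

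The members did not rank the livers alike. Within the CCl4 group array 1 had the highest Spp1 signal of all and the lowest Krt19, Prom1, Cd24 and Cftr signals of its group. CCl4 array 2 had the lowest Spp1 signal of its group and the highest Epcam, Cd24 and Cftr signals. In the CCl4+Rot group array 4 was highest for Spp1, Prom1, Cd24 and Cldn4, array 5 for Cftr, and array 6 for Epcam and Krt19. Array 5 was lowest there for Spp1, Epcam, Krt19, Prom1 and Cd24, and array 6 for Cftr. With 3 arrays a group these orders were not tested.

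The genes whose pattern was most like that of Spp1 were sought among 9805 genes by the root mean square difference between signals centred on their own mean over the 9 arrays. The nearest was Mmp12, the macrophage metalloelastase, at 0.86 (the spread of Spp1 itself was 2.20), and it stayed nearest without CCl4 array 3. Mmp12 signals were 6.60, 6.33 and 6.21 with vehicle, 10.77, 10.16 and 9.48 with CCl4 and 9.85, 7.66 and 9.32 with CCl4+Rot. Mmp12, picked for its likeness to Spp1 on these arrays, was higher on every injured than on every vehicle array. Like Spp1, Mmp12 was lowest among the injured livers on CCl4+Rot array 5, and such likeness is what the search selected. Its differences were 3.76 with CCl4 (limma adjusted p = 0.171, or 0.00813 in the trended, robust fit) and -1.20 with rottlerin on top (limma adjusted p = 0.752). Psca, a surface protein anchored by glycosylphosphatidylinositol, followed at 1.07, Pi16, a peptidase inhibitor, at 1.17, Gsta3, a glutathione transferase, at 1.18, and Gpnmb, a glycoprotein of lysosome-rich macrophages, at 1.24.

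The 5 genes nearest to the mean of the 6 detected members were Nkd1, an inhibitor of Wnt signalling, at 0.19, then Rhoc at 0.21, Cpxm2 and Fam105a, both at 0.22, and Dcakd at 0.23, where the spread of that mean was 0.66. Without CCl4 array 3 they ranked 3, 12, 18, 19 and 24, whereas the 5 neighbours of Spp1 then ranked 1, 4, 8, 3 and 6.

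**Figure D4:**
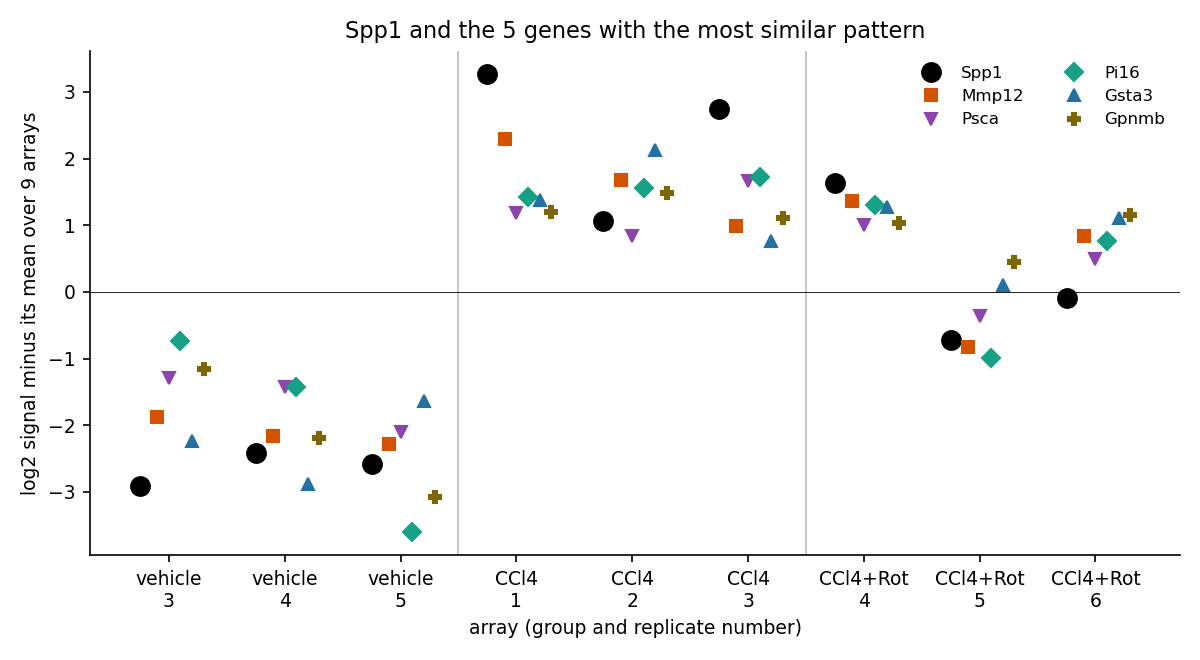
Log2 signal minus the gene's own mean over the 9 arrays, for Spp1 and the 5 genes with the most similar pattern, with the arrays on the horizontal axis and points shifted sideways for legibility. All 6 genes are below their mean on the vehicle arrays and above it on the CCl4 arrays, and on CCl4+Rot array 5 Spp1, Mmp12, Psca and Pi16 are below it.

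Other genes of bile duct epithelium, 41 measured of 46 listed, gave a wider view of the duct compartment. Of the 41, 23 were called present on at least 3 arrays and 14 on none. With CCl4, 32 were higher and 9 lower, none was called by limma, 12 had an unadjusted p below 0.05 (beside 12.4% of all probe sets), and the median difference was 0.55, or 0.24 without CCl4 array 3. Their groups did not overlap for 13 genes on the higher side and 1 on the lower, against 18.3% of all probe sets. Between CCl4+Rot and CCl4, 16 were higher and 25 lower with a median of -0.07, beside -0.05 over all genes.

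Slc10a2, the apical transporter by which cholangiocytes take up bile acids, had the smallest p with CCl4 among the detected biliary genes of this list. Its signal was 6.29, 6.83 and 6.81 with vehicle, 7.73, 7.93 and 8.22 with CCl4 and 7.97, 8.02 and 8.04 with CCl4+Rot. The injured groups lay together above the vehicle group, by 1.32 with CCl4 (SE 0.21; limma adjusted p = 0.171, or 0.0331 in the trended, robust fit), and differed from each other by 0.05. St14, a membrane serine protease of epithelia, was 7.12, 7.19 and 7.05 with vehicle, 7.48, 8.27 and 8.92 with CCl4 and 7.35, 7.41 and 7.30 with CCl4+Rot. Its mean, like that of Spp1, was higher with CCl4 than in both other groups, here without overlap. The differences were 1.10 with CCl4 (limma adjusted p = 0.285) and -0.87 with rottlerin on top (limma adjusted p = 0.747), or 0.75 and -0.52 without CCl4 array 3. Within the CCl4 group the order differed, St14 being lowest on array 1, where Spp1 was highest. Onecut1, the transcription factor HNF6 of hepatocytes and biliary cells, ran the other way. It was 11.16, 9.42 and 11.31 with vehicle, 9.75, 8.13 and 9.47 with CCl4 and 11.63, 12.46 and 10.75 with CCl4+Rot, and all its CCl4+Rot arrays were above all its CCl4 arrays (limma adjusted p = 0.650).

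Fetal liver and progenitor cell genes, 13 measured of 16 listed and 8 of them present on at least 3 arrays, were higher with CCl4 for 10 and lower for 3, with a median of 0.95, or 0.69 without CCl4 array 3, and 0 called by limma. Igdcc4, a surface protein of fetal liver, was 1.45 higher with CCl4 (limma adjusted p = 0.252), whereas Lgr4, a receptor for R-spondins, differed by -0.80 (limma adjusted p = 0.231, or 0.0367 in the trended, robust fit). With rottlerin on top the list's median was -0.22, and 0.11 without CCl4 array 3.

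Signalling genes known to act on ductular cells showed a median like that of all genes. Among 34 measured of 35 listed genes of Notch, Hippo-YAP and TWEAK signalling and the related growth factors, 20 were higher and 14 lower with CCl4, with a median of 0.12 beside 0.13 over all genes, and 0 were called by limma. Groups of this list did not overlap for 3 genes on the higher side and 2 on the lower, against 18.3% of all probe sets. The Notch genes Dll4 and Hey1 had lower means with CCl4, with overlap. Dll4 was 7.88, 8.02 and 7.36 with vehicle, 7.47, 6.66 and 6.69 with CCl4 and 7.26, 7.46 and 7.13 with CCl4+Rot. Hey1 was 7.83, 7.89 and 7.86 with vehicle, 7.19, 6.85 and 8.03 with CCl4 and 6.77, 7.07 and 5.95 with CCl4+Rot. The Hey1 overlap came from CCl4 array 3 alone, and every other injured array was below all vehicle arrays. The TWEAK pair was among the higher genes without overlap. Tnfsf12, the ligand, differed by 0.66 (limma adjusted p = 0.243) and Tnfrsf12a, its receptor Fn14, by 0.86 (limma adjusted p = 0.357). With rottlerin on top Tnfsf12 differed by 0.00 and Tnfrsf12a by -0.41 (limma adjusted p = 0.791), and the list's median was -0.04.

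Receptors and processing enzymes of osteopontin, 22 measured of 23 listed, were higher with CCl4 for 18 and lower for 4, with a median of 0.39 (0.23 without CCl4 array 3) and 0 called by limma. Cd44, the hyaluronan receptor that also binds osteopontin, was 7.22, 7.24 and 7.17 with vehicle, 8.30, 8.60 and 8.47 with CCl4 and 7.98, 8.03 and 8.70 with CCl4+Rot. Its groups did not overlap between vehicle and CCl4, at 1.24 (SE 0.22; limma adjusted p = 0.186, or 0.0296 in the trended, robust fit), and the rottlerin difference was -0.22 (limma adjusted p = 0.825). Itga8, the integrin chain of stellate cells that binds osteopontin, was 1.62 higher with CCl4 (limma adjusted p = 0.275) and 0.56 higher again with rottlerin (limma adjusted p = 0.802), or 0.33 without CCl4 array 3. Mmp12, given above, is among the proteases of this list. Between CCl4+Rot and CCl4 the list, which holds enzymes as well as receptors, split into 11 higher and 11 lower, with a median of -0.08. Of the 22 genes 5 were present on no array.

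Markers of the other cells that make osteopontin differed between vehicle and CCl4 as well, and their part in the Spp1 difference was not tested. Of 17 measured macrophage genes 14 were higher with CCl4 and 3 lower, with a median of 0.68 (0.75 without CCl4 array 3). The mean signal of that list was 8.96 to 9.56 with vehicle, 9.95 to 10.46 with CCl4 and 10.37 to 10.48 with CCl4+Rot, and 2 of its genes were present on no array. With rottlerin on top 12 of the 17 were higher and 5 lower, with a median of 0.11. Gpnmb was 10.36, 9.32 and 8.44 with vehicle, 12.71, 13.00 and 12.62 with CCl4 and 12.54, 11.96 and 12.66 with CCl4+Rot, at 3.40 with CCl4 (limma adjusted p = 0.156, or 0.00872 in the trended, robust fit) and -0.39 with rottlerin (limma adjusted p = 0.844). Lgals3, galectin-3, was at 1.93 and -0.27 in the same comparisons (2.16 and -0.50 without CCl4 array 3), and Clec4f, a lectin of resident Kupffer cells, at -0.45 and 0.56.

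All 14 stellate cell and myofibroblast genes were higher with CCl4, with a median of 1.18 (1.19 without CCl4 array 3), 9 of them without overlap against 18.3% of all probe sets, and 0 called by limma. The mean signal of the list was 8.27 to 8.63 with vehicle, 9.37 to 10.01 with CCl4 and 9.77 to 9.98 with CCl4+Rot. Col1a1, a chain of type I collagen, was at 2.29 with CCl4 (limma adjusted p = 0.171, or 0.00502 in the trended, robust fit) and 0.45 with rottlerin, and Postn was at least 11.3-fold higher with CCl4 (limma adjusted p = 0.136). Between CCl4+Rot and CCl4 9 of the 14 were higher and 5 lower, with a median of 0.24. The hepatocyte list, 11 genes present on all arrays, was lower with CCl4 for 10 genes at a median of -0.26, or -0.08 without CCl4 array 3.

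The remaining lists were measured for other cells that whole liver could hold. Among 15 lymphocyte, mast cell and neutrophil genes 13 were higher with CCl4 (median 0.63, or 0.22 without CCl4 array 3), and among 6 endothelial genes 2 were (median -0.16, or 0.06). Of 17 pancreas and intestine genes, which would mark other ducts and epithelia, 11 were present on no array and 4 on at least 3, and their median with CCl4 was 0.50, or 0.09 without CCl4 array 3. Of the list, Lgals2, Fabp2 (an intestinal fatty acid binding protein) and Muc2 (a secreted mucin) were called present on 5 arrays each and overlapped between CCl4 and vehicle. Cela1, a pancreatic elastase present on 1 vehicle array alone and named here after its values were seen, was lower in the trended, robust limma fit with CCl4 (adjusted p = 0.00806) and with CCl4+Rot (adjusted p = 0.00326) than with vehicle.

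**Figure D5:**
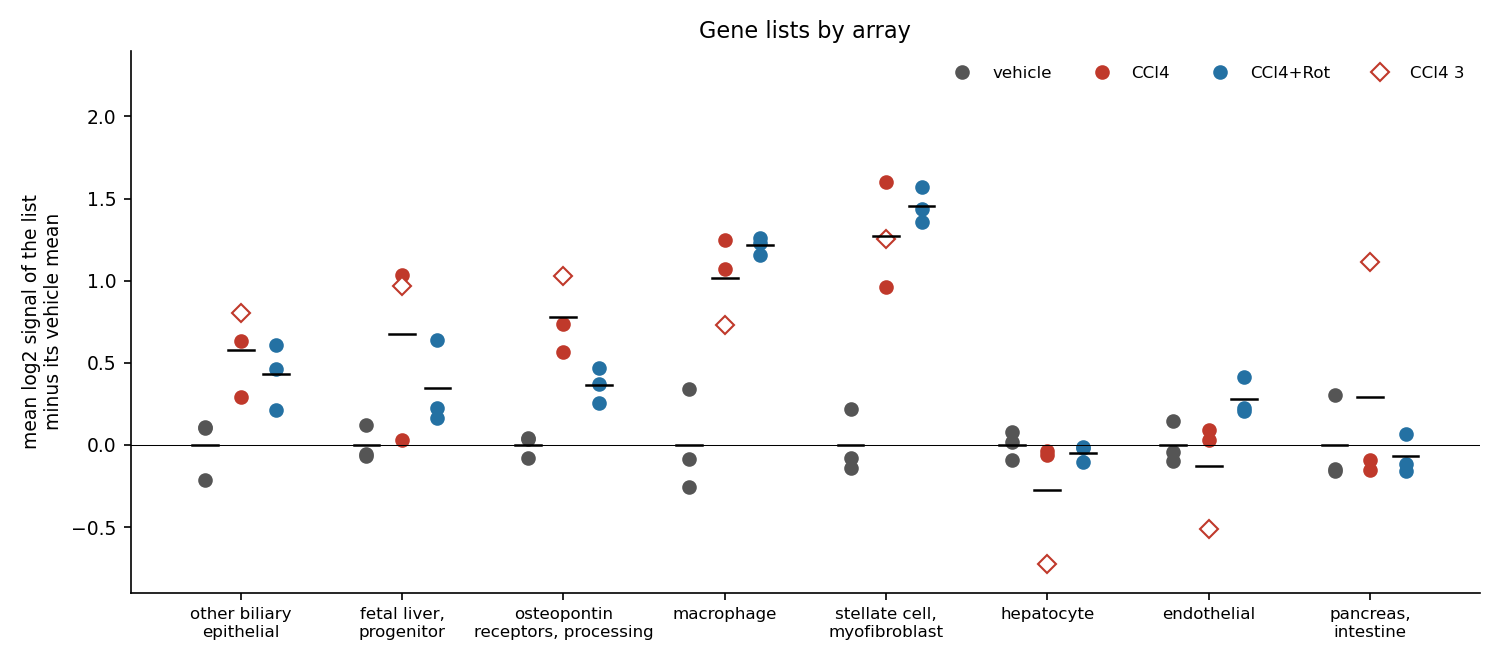
Mean log2 signal of 8 gene lists on each array, minus the mean of the list's vehicle arrays, with 1 point per array, a black line for each group mean and an open diamond for CCl4 array 3. The macrophage and the stellate cell lists lie above all their vehicle points on the 6 other arrays, and the pancreas and intestine list stands out on CCl4 array 3, where its mean was 6.59.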

How the data were processed

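Total RNA of 9 rat livers was labelled and hybridised to Affymetrix rat GeneChip arrays, 1 array a sample. The authors deposited log2 signals and detection calls, and the submitters' processing notes name MAS5 and affy. Each array's signals average 500 on the linear scale after trimming 2% at each end, so they had been scaled but not quantile normalized. Beyond this, how the values were made is not given in the sources used here. Of 31099 probe sets, 57 controls were left out. Groups came from the sample labels, which do not pair samples, and array signals carry no read depth: the 3 arrays a group limit the precision.

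The deposited log2 values were fitted as 3 group means in limma 3.58.1 (R 4.3.3, statmod 1.5.0), with Benjamini-Hochberg adjustment over 31042 probe sets, a threshold of 0.05 and a fold of at least 1.5. A gene without a present call in 1 group was given as "at least N-fold" against that group's own signals. Such a limit concerns detection in that group and not the spread between arrays. Cftr, also absent on arrays of the brighter groups, was given as a ratio of means. A gene without a present call in both groups got no fold. The procedure was tested on simulated data. Alternatives were quantile normalization, median centring, leaving out the lowest 30% of probe sets, a detection filter of 3 arrays, fitting only the groups compared, trended and robust variances, array weights, the methods' t-test, a replicate block, other fold thresholds and leaving out each array. The fit with trended and robust variances without CCl4 array 3 was added after seeing the data.

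The members and gene lists were chosen with earlier results of these data known. The text names all members. From each list it draws on the genes present on at least 3 arrays with the smallest p for CCl4 against vehicle (3 genes) and for CCl4+Rot against CCl4 (2 genes), on the brightest 2 genes of other cell types, and on the 5 nearest genes by pattern. One gene that this rule names is not reported here. Genes ranked beside Spp1 by size were named after their values were seen. Promoters are RefSeq sequences of GRCr8.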

Additional observations from a re-analysis of the deposited data

How the results depend on the processing

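With 3 arrays a group, signals near background and 1 unusual array set the limits. Of 198 values of the 6 detected members under alternatives other than leaving out an array, 14 changed sign, and of 162 with an array left out 153 kept their sign. The 14 concern small differences. Krt19 with CCl4 was -0.15 under quantile normalization, -0.16 with median centring, -0.10 without CCl4 array 3 under trended, robust variances, and -0.10 to 0.51 with arrays left out. For CCl4+Rot against CCl4 under the same settings it was 0.051, 0.062, 0.12 and -0.50 to 0.12, and Prom1 was 0.016, 0.12, 0.16 and -0.60 to 0.16. Cd24 was 0.15 and 0.039 under quantile normalization and median centring and -0.60 to 0.15 with arrays left out, and Cftr was -0.11 with array weights and -0.42 to 1.04. For CCl4+Rot against vehicle Krt19 was -0.094, -0.097 and -0.14 to 0.13. The cause was not tested.

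The median difference of the members with CCl4 was 0.88, 0.47 under quantile normalization, and 0.40 (without CCl4 array 2) to 0.98 (without CCl4 array 1) with arrays left out. Under the detection filter, which Spp1 passed only through the injured groups, 1 member (Spp1) was called with CCl4. Trended, robust variances and the methods' t-test without adjustment also called 1 (Spp1). That t-test also gave 1 (Krt7, never called present) for CCl4+Rot against CCl4 and 3 (Spp1, Prom1 and Cftr) for CCl4+Rot against vehicle.

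The probe sets called with CCl4 numbered 0, but 4 without the lowest 30%, 78 under the detection filter, 348 with trended, robust variances (313 without CCl4 array 3) and 1774 by the unadjusted t-test, and 0 with any array left out. With rottlerin on top of CCl4 the 1 call became 0 under quantile normalization, without the lowest 30%, under the detection filter, with only the groups compared and by the adjusted t-test, 11 with trended, robust variances without CCl4 array 3, 851 by the unadjusted t-test, and 0 to 2 with arrays left out. For CCl4+Rot against vehicle the 8 calls became 3 under quantile normalization, 2 with median centring, 22 without the lowest 30%, 63 under the detection filter, 1 with only the groups compared, 241 with trended, robust variances (365 without CCl4 array 3), 73 with array weights, 0 by the adjusted and 2126 by the unadjusted t-test, and 0 to 24 with arrays left out.

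The numbers in the labels did not pair the samples: deviations of same-numbered arrays correlated at -0.09, -0.005 and -0.01. With the replicate block the calls stayed at 0, 1 and 8, no member was called, and Spp1 was at 4.99, -2.09 and 2.90. The mean over probe sets and the most often detected probe set were not run, because each member has 1 probe set.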
